A study of Mus musculus with 15 samples.

Results

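Livers grown under the kidney capsule (neo-livers) were compared with the livers of normal mice. The comparison rests on 4 arrays titled neo-liver and 3 arrays titled control liver, chosen by title, which are 7 of the 15 arrays of the study. The 4 host kidney arrays served only as a scale for kidney RNA. All mice were female FVB/N. Recipients aged 7 to 9 weeks at the start received 2 intraperitoneal doses of monocrotaline, a plant toxin that injures the liver, at 70 mg/kg each and 2 weeks apart. At 2 weeks after the last dose, 1000000 hepatocytes from FVB/N donors of 8 to 20 weeks that carry a human α1-antitrypsin transgene were placed under the kidney capsule. The nodules were microdissected from the kidneys 250 to 300 days later, when recipients were 48 to 55 weeks old, and the host kidneys came from mice with the same treatment and age. Control livers came from 20-week-old mice with no monocrotaline and no transplant. Site, age, toxin, transplantation and donor cells therefore all differ between the groups compared and cannot be told apart. The labels number the arrays without saying that each number is a separate animal, so p-values measure the spread between these samples.

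The liver performs its functions in zones along the path of the blood. Periportal hepatocytes, next to the incoming vessels, carry most of the urea cycle, amino acid breakdown and glucose production, while pericentral hepatocytes carry glutamine synthesis and much of drug metabolism. Both secrete plasma proteins such as albumin. Kupffer cells, sinusoidal endothelium and stellate cells line the sinusoids, and scarring or inflamed liver additionally gains matrix-producing cells, recruited macrophages and neutrophils.

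RNA was measured on 1-colour Agilent arrays. A level is the log2 processed signal minus the array's 75th percentile, and 1 unit of difference is a factor of 2. Neo-liver and control liver arrays lay on the same slide, with neo-liver in slide columns 1 and 2 and control liver in columns 3 and 4, so slide column and group cannot be told apart; the host kidneys lay on another slide. The 75th percentile signal was 389.6 to 424.3 on the control livers and 416.0 to 676.4 on the neo-livers, and 53.8% to 55.3% and 56.1% to 60.7% of probes were well above background. A gene was called when its adjusted p in the limma fit over all 15 arrays was below 0.05. After scaling, the median over the 15620 genes tested lay 0.15 below control liver (-0.15), and with quantile scaling it was -0.02.

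The neo-livers carried the hepatocyte product albumin near its liver level and also carried genes of the kidney epithelium. The level of Alb was 10.52, 10.01, 10.00 and 9.92 on the 4 neo-liver arrays and 10.65, 10.73 and 10.74 on the 3 control livers, against a host kidney mean of -0.12 ± 0.45 (SD, n = 4). The kidney was measured with 80 tubule and podocyte markers whose host kidney level exceeded that of control liver 8-fold or more. Their median linear level, placed between the control liver (0) and the host kidney (100%), was 18.2%, 43.9%, 18.6% and 30.5% on neo-liver arrays 1 to 4. Array 2 held the highest share and arrays 1 and 3 the lowest. The mean was 27.8%, and on the control livers the share was close to 0 (-0.0035%, 0.0021% and 0.0011%). The markers disagreed widely within an array, with an interquartile range of 21.5% to 58.8% on array 2. The share came to 26.7% ± 10.5 (SD, n = 4) from proximal tubule markers, 25.3% ± 11.4 from loop, distal tubule and collecting duct markers and 36.0% ± 9.15 from podocyte markers. It is a share of RNA and not of cells.

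**Figure D1:**
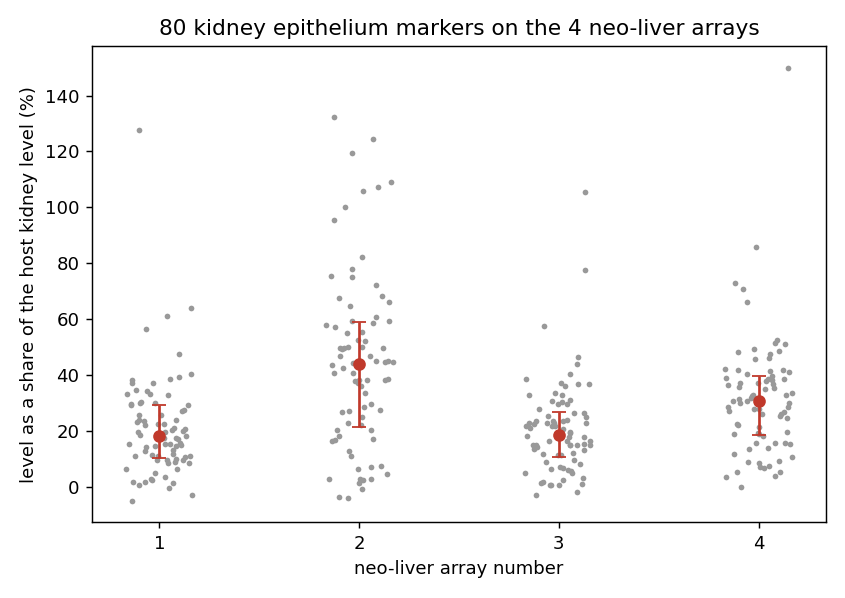
Linear level of 80 kidney epithelium markers on each neo-liver array, as a percent of the way from control liver to host kidney. Grey points are markers (1 point above 150% is drawn at 150%), and the red point and bar are the median and interquartile range, with medians of 18.2%, 43.9%, 18.6% and 30.5%.

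Of the 15620 genes tested, 3184 (20.4%) were called higher in neo-liver and 4637 (29.7%) lower. Of these, 2275 and 1285 differed at least 2-fold. Rises made up 40.7% of all calls with this scaling, 52.4% with quantile scaling and 86.8% with no scaling between arrays, so the balance of rises to falls rests on the scaling. Of the called rises, 1095 were in genes that host kidney carried at 8 or more times the control liver level, and 812 were in genes not well above background on any control liver array. A mixture level was computed for each neo-liver array from its own kidney share, the mean control liver and the mean host kidney. Against it 973 genes (6.23%) were higher and 3233 (20.7%) lower. Rises made up 23.1% of these calls, 32.9% with quantile scaling, 58.9% with no scaling and 48.1% when the mixture was rescaled to its own 75th percentile. Leaving out any single control liver array brought the 2 counts to 460 to 518 and 1751 to 2050. With the upper quartile over the markers as the share they were 742 and 2819. The test took each array's share and the host kidney mean as exact. Their error is therefore not part of any standard error or p-value given against the mixture. Among the called rises, 2152 were at the mixture level, meaning that they did not pass the test against it. The other rises comprised 452 beyond it, 129 short of it, and 451 above both organs.

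A stricter separation needed no estimate of the share. A gene above both organs was called higher than control liver and higher than host kidney, and no mixture of the mean host kidney and mean control liver levels gives such a value. There were 451 such genes (2.89%), of which 269 lay at least 2-fold above the nearer organ. In 346 of the 451 the control liver and host kidney means were within 2-fold of each other. Below both organs lay 764 genes (4.89%), of which 52 differed at least 2-fold from the nearer organ. Of the falls, 1777 were at the mixture level and 2096 beyond it. All 4 neo-liver arrays lay beyond all arrays of both organs for 342 of the 451 genes above and for 606 of the 764 genes below.

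**Figure D2:**
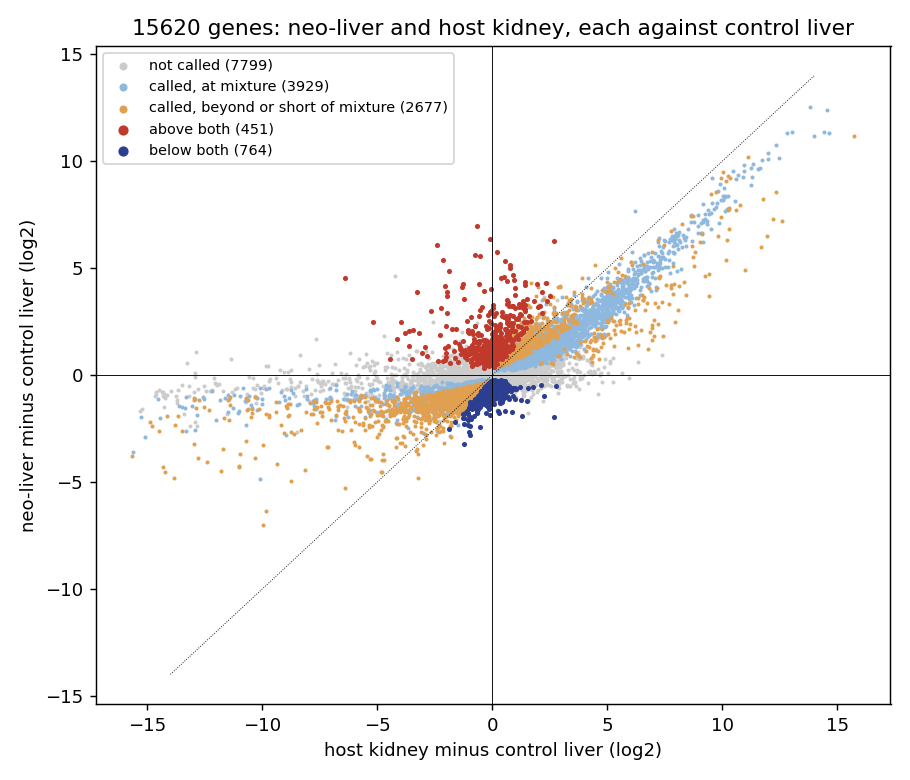
Difference from control liver (log2) of neo-liver, vertical, and host kidney, horizontal, for 15620 genes. The dotted line marks equal differences; genes on it differ from control liver as much as host kidney does. The 451 genes above both organs are red and the 764 below both are blue.

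Tff3, Cib3, Gldn and Psg26 were among the genes farthest above both organs. A probe was kept when it was well above background on every array of at least 1 group. Of neo-liver, control liver and host kidney, only neo-liver met this for these genes, and for Ngp, Gpnmb and Top2a below. Their adjusted p-values are therefore no separate support for the rises. Tff3, trefoil factor 3, a mucosal peptide, had levels of 4.21, -1.26, 2.37 and -0.77 on the neo-livers. It was not well above background on any control liver or host kidney array, so only a lower bound can be given. For such genes the bound sets the neo-liver mean against, on each dim array, the higher of the gene's own signal and the lowest signal among probes well above background. The rise of Tff3 was at least 45.1-fold (adjusted p = 0.00107, limma). The 4 neo-liver arrays spanned a wide range, with arrays 1 and 3 high and arrays 2 and 4 low, all above control liver and host kidney. In the livers of the treated hosts Tff3 was -0.56, -0.42, -6.38 and -2.26, and 2 of these arrays exceeded neo-liver arrays 2 and 4. Cib3, a calcium- and integrin-binding protein, had levels of 2.80, 1.79, 2.27 and -0.80 on the neo-livers and rose at least 58.6-fold (adjusted p = 1.51e-05). Gldn, gliomedin, a protein of nerve nodes, rose at least 20.6-fold (adjusted p = 5.01e-04) and Psg26, of the pregnancy-specific glycoproteins, at least 10.8-fold (adjusted p = 5.33e-05). Neither was well above background on any control liver array. Their host liver levels were -0.10, -3.57, -4.88 and 0.44 for Gldn and -2.62, -5.19, -2.35 and -1.69 for Psg26, which overlap the neo-liver levels of 1.85, -1.77, -0.29 and 0.23 and -0.20, -2.37, 0.33 and -1.45.

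Ly6d, a surface protein best known from B cell precursors and epithelium, was 2.74, 2.71, 5.24 and 5.50 in neo-liver and -1.62, -1.86 and -1.60 in control liver. The groups did not overlap, and arrays 3 and 4 were higher than arrays 1 and 2. The difference was 5.74 ± 0.76 (log2, SE; adjusted p = 4.54e-05, limma). Spon2, spondin 2, a matrix protein, was 2.04, 1.99, 3.15 and 3.11 against -2.36, -2.22 and -2.34, with the same split between arrays and no overlap. It differed by 4.88 ± 0.62 (adjusted p = 2.88e-05). Both were also high in the livers of the treated hosts, with means of 3.41 for Ly6d and 2.09 for Spon2, which share the control livers as their reference.

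Pclo, piccolo, a scaffold of the presynaptic zone, had the smallest spread among the 8 leading genes. Its levels were 6.27, 5.83, 5.73 and 5.81 in neo-liver, 0.23, 0.33 and 0.34 in control liver and -0.57, -0.05, -0.58 and -0.62 in host kidney, and its host liver mean was -0.65. The difference from control liver was 5.61 ± 0.18 (adjusted p = 9.80e-11, limma). This value comes from 1 probe, and the gene's other probes did not show the same pattern. On a second probe for the same transcript the means were -1.85 in neo-liver, -6.27 in control liver and -0.22 in host kidney, which lies between the organs. On the remaining probes neo-liver differed from control liver by -0.06 and -1.77. The level of Pclo is therefore uncertain.

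Neutrophil and myeloid granule genes rose together and were highest on neo-liver array 1. Of 18 listed genes 13 were tested, 8 were called higher and the same 8 were above both organs, with a median difference of 3.01 against -0.15 over all genes. They were Ngp, Mpo, Ltf, S100a8, S100a9, Camp, Lcn2 and Retnlg. Mpo, myeloperoxidase, was 4.06, -0.08, -0.18 and 1.87 in neo-liver and -4.10, -4.44 and -3.19 in control liver. Array 1 was the highest and arrays 2 and 3 the lowest, with no overlap, and the difference was 5.33 ± 0.96 (adjusted p = 4.78e-04, limma). Ngp, neutrophilic granule protein, was 3.67, -0.52, -0.02 and 1.03 against -4.05, -5.11 and -3.86, again with array 1 the highest and arrays 2 and 3 the lowest, a difference of 5.38 ± 0.94 (adjusted p = 3.92e-04). S100a8, a subunit of calprotectin, was 6.72, 2.32, 3.56 and 4.50 against -1.48, -0.57 and -0.20 and differed by 5.03 ± 1.12 (adjusted p = 0.00227). Ltf, lactoferrin, differed by 5.15 ± 0.96 (adjusted p = 6.47e-04). The other tested genes of the list, Csf3r, Elane, Trem1, Stfa2 and Il1b, were not called. Csf3r, the receptor of granulocyte colony-stimulating factor, had a difference of -0.35 ± 0.14 (adjusted p = 0.0573), Elane, neutrophil elastase, 0.01 ± 0.29 (adjusted p = 0.980) and Trem1 -0.13 ± 0.11 (adjusted p = 0.345). The summed linear level of the list was 178 to 799 on the neo-livers, 170 to 194 on the control livers and 138 to 163 on the host kidneys. The sums of some lists below overlapped control liver: recruited macrophage (944 to 1423 against 1349 to 1517), B and plasma cell (72.3 to 101 against 91.7 to 100) and matrix (459 to 738 against 518 to 544). They were higher without overlap for stellate cell (286 to 370 against 190 to 214), cell cycle (53.7 to 97.6 against 30.8 to 46.7) and p53 target (145 to 183 against 136 to 139) genes. Without neo-liver array 1, 6 of the 13 neutrophil genes were called higher and 1 lower, and without array 4, 6 were called higher. In such bulk samples, more cells of a type and more RNA per cell cannot be told apart.

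Markers of recruited macrophages rose while those of resident Kupffer cells mostly did not pass the test. Of 34 recruited macrophage and dendritic cell genes 30 were tested, 17 were called higher, 2 lower (Mrc1 and Apoe), and 10 were above both organs. Their median difference was 1.47, and 1.17 against the mixture level. Trem2, a lipid receptor of macrophages in injured tissue, was 1.61, 0.17, 0.86 and 2.44 in neo-liver and -1.83, -1.99 and -2.17 in control liver. The groups did not overlap, array 4 was highest, and the difference was 3.26 ± 0.47 (adjusted p = 9.33e-05, limma). Gpnmb, a macrophage glycoprotein, was -1.07, -2.74, -0.42 and 2.20 in neo-liver, with array 4 again highest and array 2 lowest. It was not well above background in control liver and rose at least 14.4-fold (adjusted p = 0.00407). Chil3, a chitinase-like protein of activated macrophages, differed by 4.04 ± 0.73 (adjusted p = 4.83e-04) and was highest on array 1. Cx3cr1, the fractalkine receptor, rose by 4.52 ± 0.33 (adjusted p = 1.77e-07) and stood 2.31 over the mixture level (adjusted p = 0.00283), with a host kidney mean of 0.47 ± 0.52 (SD, n = 4). The antigen presentation genes in the list, among them Cd74 and H2-Ab1, were not called.

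Of 22 Kupffer cell genes, all tested, none was called higher and 3 were called lower, namely Cd163, Nr1h3 and Id3. Against the mixture 2 were lower. Over all genes 29.7% were called lower and 20.7% were lower than the mixture, so these falls are no result about Kupffer cell genes as a list. Cd163, the haemoglobin scavenger receptor, was -3.32, -2.46 and -3.12 in control liver. It was not well above background on any neo-liver array, a fall of at least 3.76-fold (adjusted p = 1.78e-04, limma). Nr1h3, the sterol receptor LXRα, fell by 1.03 ± 0.11 (adjusted p = 8.41e-06). Clec4f, a lectin that defines Kupffer cells, was 4.96, 4.44, 3.34 and 4.70 in neo-liver and 4.59, 5.25 and 5.33 in control liver. Array 3 was the lowest and the groups overlapped, with a difference of -0.70 ± 0.50 (adjusted p = 0.260). The median over the list was -0.30, and 0.07 against the mixture level.

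Several B cell genes were higher in neo-liver. Of 27 B and plasma cell genes 23 were tested, 13 were called higher, 2 lower (Sdc1 and Cd22) and 7 were above both organs, including Ms4a1, the CD20 antigen. Ms4a1 was -0.70, -1.62, -1.21 and -2.02 in neo-liver and -3.13, -3.18 and -3.49 in control liver. The groups did not overlap and differed by 1.88 ± 0.27 (adjusted p = 8.16e-05, limma). The count of B and plasma cell genes called higher fell to 8 with another background correction (normexp), and 5 of the tested genes were not well above background on any control liver array. Of 37 T and NK cell genes 31 were tested, 5 were called higher (among them Cd4, Cd8a, Ccr7 and Eomes) and 4 lower (Zap70, Gzma, Gzmk and Nkg7). Over all genes 20.4% were called higher and 29.7% lower, so these counts are no result about T and NK cell genes. The 2 probes of Cd4 disagree, which makes its rise uncertain. Cd3d, a chain of the T cell receptor complex, differed by 0.70 ± 0.39 (adjusted p = 0.149). Without neo-liver array 2, the lowest for Cd3d, 9 T and NK cell genes were called higher, beside 20.1% of all genes. That array was picked for its low level, so this count is no support for a rise.

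Most matrix genes were higher in neo-liver, many of them also over the mixture level. Of 58 matrix and myofibroblast genes 52 were tested, 39 were called higher, 2 lower (Col18a1 and Vcan) and 19 were above both organs. Against the mixture level 28 were higher and 1 lower. The median difference was 1.72, and 1.00 against the mixture. Col3a1, a chain of fibrillar collagen, was 2.59, 2.19, 1.52 and 2.94 in neo-liver and 0.25, 0.47 and -0.46 in control liver, with no overlap. It differed by 2.22 ± 0.42 (adjusted p = 7.15e-04, limma). Lum, lumican, a proteoglycan that orders collagen fibrils, was 3.67, 2.35, 3.42 and 3.70 against 0.71, 0.52 and 0.42, with array 2 the lowest and no overlap. It differed by 2.74 ± 0.32 (adjusted p = 1.64e-05). Timp1, an inhibitor of matrix proteases, was -0.20, -1.07, -0.34 and 1.22 in neo-liver, not well above background in control liver, and rose at least 18.0-fold (adjusted p = 8.79e-05). Acta2, the smooth muscle actin of myofibroblasts, was 2.32, 1.05, 0.29 and 2.04 in neo-liver and -0.21, -0.35 and -0.96 in control liver. The groups did not overlap, but the difference of 1.93 ± 0.83 did not pass (adjusted p = 0.0684). With array 3, the lowest, left out, Acta2 differed by 2.31 and passed (adjusted p = 0.0447, limma). Without array 1, 2 or 4 it did not pass (adjusted p = 0.151, 0.0825 and 0.139). It passed when only neo-liver, control liver and host kidney were fitted (adjusted p = 0.00521). The host kidney mean of Acta2 was 1.60 ± 0.50 (SD, n = 4), and against the mixture Acta2 was 1.01 ± 0.84 (adjusted p = 0.389).

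Some stellate cell genes were higher in neo-liver. Of 31 listed 29 were tested, 13 were called higher and 4 lower (Colec10, Gfap, Vipr1 and Angptl6), with a median difference of 0.72. Over all genes 20.4% were called higher and 29.7% lower, so the falls are no result about the list. Against the mixture level 13 were higher and 2 lower, beside 6.23% and 20.7% of all genes. Lrat, the enzyme of vitamin A storage, was -0.06, 0.73, 0.12 and 0.38 in neo-liver and 0.85, 0.48 and 0.49 in control liver, overlapping, with a difference of -0.31 ± 0.25 (adjusted p = 0.321, limma). Cygb, cytoglobin, was 4.50, 3.43, 3.97 and 4.04 against 2.10, 2.00 and 1.94, and differed by 1.97 ± 0.23 (adjusted p = 1.27e-05) with no overlap. Adamtsl2, a secreted matrix regulator, differed by 2.65 ± 0.23 (adjusted p = 7.76e-07). Cygb and Adamtsl2 were above both organs.

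Gdf15 and Cdkn2a, 2 markers of stress and arrest, were above both organs. Gdf15, a stress-induced hormone, was 4.82, 4.36, 4.84 and 4.76 in neo-liver, 0.08, 0.52 and 0.51 in control liver and 3.44, 1.40, 2.60 and 3.34 in host kidney. The groups did not overlap and array 2, with the most kidney RNA, was the lowest neo-liver. Gdf15 differed by 4.32 ± 0.37 (adjusted p = 8.27e-07, limma) and its host liver mean was 5.42. Cdkn2a, which encodes the cell cycle inhibitors p16 and p19, was -1.52, -1.93, -1.43 and -1.27 in neo-liver. It was not well above background on any control liver and rose at least 7.05-fold (adjusted p = 1.98e-06). A second Cdkn2a probe for the same transcript was too dim to be kept and differed by -0.49, so the rise rests on 1 probe. The host liver mean of Cdkn2a was -0.40. Of 28 p53 target and senescence genes tested, 15 were called higher, 3 lower (Ei24, Perp and Mdm2) and 2 were above both organs.

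Of 37 cell cycle genes 32 were tested, 18 were called higher, none lower (3 of 32 had a difference below 0) and 9 were above both organs, with a median difference of 2.08. Mki67, the Ki-67 proliferation antigen, was 0.97, 1.23, 0.77 and -0.75 in neo-liver and -1.85, -1.60 and -1.38 in control liver, with array 4 the lowest and no overlap. It differed by 2.16 ± 0.49 (adjusted p = 0.00246, limma). Top2a, topoisomerase II alpha, rose at least 4.02-fold (adjusted p = 8.47e-04). Of the 32 cell cycle and mitosis genes 8 were not well above background on any control liver array. With normexp background correction 7 of the 32 were called higher. Over all genes 20.4% were called higher in the main fit and 15.9% with normexp, so the list's rise depends on the background correction. Whether cells divided, and which, was not tested.

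**Figure D3:**
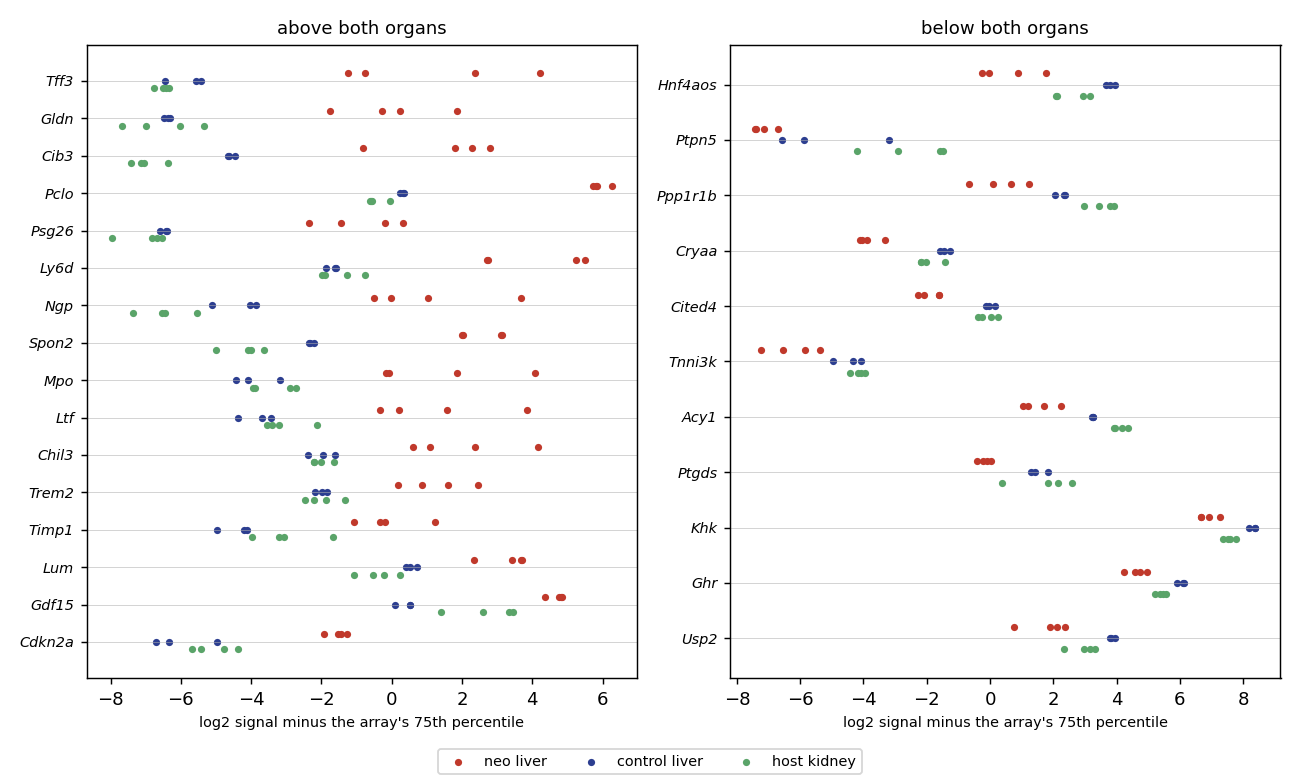
Levels (log2 signal minus the array's 75th percentile) on every neo-liver (red), control liver (blue) and host kidney (green) array for 16 genes above both organs, left, and 11 below both, right. Granule genes such as Ngp and Mpo are spread over several units between neo-liver arrays, while Pclo and Gdf15 sit close together.

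Enzymes of the urea cycle and amino acid breakdown were lower in neo-liver. All 33 listed genes were tested, 31 were called lower and the same number were lower than the mixture level. Agxt and Bhmt were not called. The median difference was -2.17, and -1.77 against the mixture, beside -0.15 and -0.19 over all genes. With quantile scaling and with no scaling between arrays 31 were called lower as well, while the number of urea cycle and amino acid catabolism genes below the mixture was 27 and 18. Cps1, the entry enzyme of the urea cycle, was 4.35, 4.25, 4.06 and 2.89 in neo-liver and 7.22, 7.08 and 7.08 in control liver. The groups were far apart and array 4 was the lowest. The difference was -3.23 ± 0.40 (adjusted p = 2.43e-05, limma), and -2.75 ± 0.41 against the mixture level (adjusted p = 8.61e-04). Arg1, the last enzyme of the cycle, was 5.61, 5.47, 5.83 and 5.04 against 8.09, 8.16 and 8.07 and fell by 2.62 ± 0.25 (adjusted p = 1.90e-06). Otc, ornithine transcarbamylase, fell by 1.93 ± 0.40 (adjusted p = 0.00138). Ass1, argininosuccinate synthase, fell by 2.52 ± 0.50 (adjusted p = 0.00104), and its host kidney mean was 7.15 ± 0.56 (SD, n = 4).

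Outside the cycle, Hal, which starts histidine breakdown, was 3.39, 3.92, 3.75 and 3.57 in neo-liver and 6.89, 7.00 and 6.92 in control liver. The 4 neo-livers lay within a narrow range and the groups did not overlap. Hal fell by 3.28 ± 0.31 (adjusted p = 2.39e-06, limma). Gls2, liver glutaminase, was 4.66, 4.27, 4.25 and 2.08 against 7.85, 7.88 and 7.86, with array 4 the lowest, and fell by 4.05 ± 0.64 (adjusted p = 1.81e-04). Sds, serine dehydratase, was 3.10, 1.97, 1.94 and 0.60 against 6.66, 6.58 and 6.86, again with array 4 the lowest and array 1 the highest.

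The size of these falls can be set against dilution by kidney RNA. Before any rescaling of the mixture, the highest share over the 80 markers, 43.9%, lowers a gene absent from kidney by 0.83, and the lowest, 18.2%, by 0.29. Rescaling to the mixture's own 75th percentile would lower it by a further 0.20 and 0.13. To reach the measured mean level by dilution alone, Cps1 would need 89.4% kidney RNA, Arg1 83.7%, Hal 89.8% and Alb 34.0%. On neo-liver arrays 1 to 4 Alb needed 12.3%, 38.4%, 39.0% and 42.3%. These values do not follow the marker shares of 18.2%, 43.9%, 18.6% and 30.5%. The value for Alb also rests on the scaling, since Alb differed by -0.09 with no scaling between arrays (adjusted p = 0.817, limma). Over the 20 amino acid genes at least 8-fold higher in control liver than in host kidney, the median share needed was 82.4%, and all 20 needed more than 43.9%. Over 836 such liver-enriched genes of any kind the median was 54.9% and 531 (63.5%) needed more than 43.9%. Among 30 plasma protein genes the median was 35.5% and 9 needed more.

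**Figure D4:**
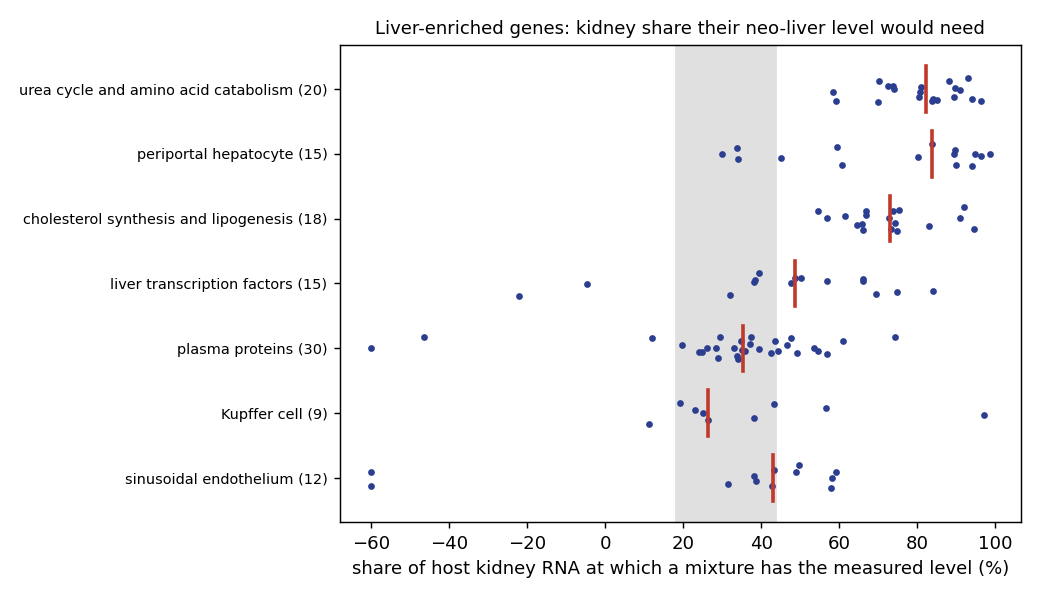
Share of host kidney RNA (%) at which a mixture with control liver has the measured neo-liver level, for liver-enriched genes (points) of 7 lists, with the list median in red (3 points below -60% are drawn at -60%). The grey band spans the marker shares of the 4 neo-liver arrays, 18.2% to 43.9%; the 20 amino acid genes all lie to its right and most plasma protein genes in or near it.

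Most plasma proteins did not pass the test against the mixture level. Of 33 tested genes 18 were called lower, 2 higher (C8a and Serpina7), and against the mixture 2 were lower (Apoc3 and F9) and 1 higher, with medians of -0.62 and -0.14. With quantile scaling 8 plasma proteins were higher than the mixture and 0 lower, with a median of 0.36. Alb fell by 0.60 ± 0.22 (adjusted p = 0.0389, limma) and was -0.11 ± 0.22 against the mixture (adjusted p = 0.738). Ttr, the thyroxine carrier transthyretin, was 8.79, 8.46, 8.31 and 8.33 in neo-liver and 9.57, 9.66 and 9.60 in control liver, and fell by 1.14 ± 0.29 (adjusted p = 0.00525). Apoa1, the main protein of HDL, was 7.75, 6.76, 7.40 and 7.28 against 6.52, 6.76 and 6.96, with a difference of 0.55 ± 0.46 (adjusted p = 0.341). The falls of plasma proteins depend on scaling, since 3 were called lower with quantile scaling and 2 with no scaling, and Alb then differed by 0.00 and -0.09. Quantile scaling gives the brightest gene of every array the same value, and Alb was the brightest in both groups by mean level. Leaving out control liver array 1, 2 or 3 brought the plasma proteins called lower to 9, 9 and 8.

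The promoters of 2 genes far below the mixture level, Hal and Cyp2f2, and of Alb, which did not pass the test against it, are shown as the 250 bases before the start site, from RefSeq on GRCm38.p6, plus strand. Hal lies at chr10:93488518-93488767, Cyp2f2 at chr7:27119705-27119954 and Alb at chr5:90460620-90460869. Capitals mark matches, on either strand, to TTGCNNAA (letters of sites bound by C/EBP factors), GTTAAT (an HNF1 site), CAAAGTNCA (an HNF4 direct repeat) or TATAAA (the TATA box).
Hal: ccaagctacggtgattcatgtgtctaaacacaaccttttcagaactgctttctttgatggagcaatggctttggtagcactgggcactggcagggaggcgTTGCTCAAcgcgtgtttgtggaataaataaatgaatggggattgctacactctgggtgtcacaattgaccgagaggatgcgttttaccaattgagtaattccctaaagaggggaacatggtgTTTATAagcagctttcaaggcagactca
Cyp2f2: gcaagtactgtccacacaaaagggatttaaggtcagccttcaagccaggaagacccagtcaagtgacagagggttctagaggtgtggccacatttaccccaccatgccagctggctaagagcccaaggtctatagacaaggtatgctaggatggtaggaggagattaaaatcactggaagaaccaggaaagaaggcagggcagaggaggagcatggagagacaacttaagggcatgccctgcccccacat
Alb: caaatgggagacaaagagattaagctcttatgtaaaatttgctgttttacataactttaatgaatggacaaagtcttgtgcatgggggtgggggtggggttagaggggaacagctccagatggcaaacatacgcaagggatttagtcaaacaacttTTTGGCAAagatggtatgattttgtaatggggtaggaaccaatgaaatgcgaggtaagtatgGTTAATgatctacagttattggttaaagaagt
Hal held 1 match to the C/EBP letters and 1 to the TATA box, Alb 1 to the C/EBP letters and 1 to the HNF1 site, and Cyp2f2 none. The marked matches do not overlap one another. The C/EBP letters occurred in 9.56% of all 32851 promoter windows, in 12 of 29 windows (41.4%) of plasma protein genes and in 3 of 24 (12.5%) of amino acid genes. The HNF1 site occurred in 6.43%, 27.6% and 12.5%, the HNF4 letters in 1.19%, 3.45% and 4.17%, and the TATA box in 12.4%, 20.7% and 16.7%. A match describes these letters only and says nothing of binding.

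Most periportal genes were lower in neo-liver. Of 26 periportal genes tested 20 were called lower, 17 were lower than the mixture and 1 was called higher, with a median of -1.29. Over all genes 29.7% were called lower and 20.7% were lower than the mixture. The list shares members with the amino acid list, among them Arg1, so its counts are not separate from those given above. With no scaling 13 periportal hepatocyte genes were called lower. Cyp2f2, a periportal cytochrome P450, was 4.37, 5.15, 4.98 and 3.56 in neo-liver and 8.73, 8.77 and 8.77 in control liver, with no overlap, and fell by 4.24 ± 0.40 (adjusted p = 2.26e-06, limma). Etnppl, an enzyme of phosphoethanolamine breakdown, was 0.45, 0.00, 1.50 and 0.12 against 5.87, 5.91 and 5.57 and fell by 5.27 ± 0.51 (adjusted p = 2.81e-06). Of 29 pericentral genes tested 9 were called lower and 2 higher, with a median of -0.43 that turned to 0.10 with quantile scaling. The share called lower is close to the 29.7% of all genes, so it is no result about the pericentral genes. Glul, glutamine synthetase, was 5.37, 5.15, 4.09 and 5.47 in neo-liver and 5.34, 5.18 and 5.22 in control liver, overlapping. Its difference was -0.23 ± 0.33 (adjusted p = 0.594). Cyp1a2, a pericentral drug enzyme, ranged over 3.03, 4.66, 5.09 and 6.91 in neo-liver, with array 1 the lowest and array 4 the highest, and differed by -0.10 ± 0.85 (adjusted p = 0.934). Cyp2e1, the ethanol-oxidising P450, fell by 1.12 ± 0.30 (adjusted p = 0.00690), and differed by -0.40 with quantile scaling, where it did not pass (adjusted p = 0.342, limma). The difference between the zones was not tested.

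Several regulators of the hepatocyte were lower. Of 26 liver transcription factors tested 13 were called lower, 1 higher and 9 were lower than the mixture, with a median of -0.82. Cebpa, C/EBPα, was 3.40, 4.12, 3.63 and 3.59 in neo-liver and 5.55, 5.49 and 5.42 in control liver, with no overlap. It fell by 1.81 ± 0.29 (adjusted p = 1.89e-04, limma). Foxa2 fell by 1.56 ± 0.22 (adjusted p = 6.75e-05) and Onecut1, HNF6, by 2.58 ± 0.48 (adjusted p = 6.32e-04). Hnf4a, a factor shared by hepatocytes and proximal tubule, fell by 0.62 ± 0.13 (adjusted p = 0.00162), and lost the call with quantile scaling, where it differed by -0.04 (adjusted p = 0.824, limma). With no scaling 3 liver transcription factors were called lower.

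Most lipid synthesis genes were lower. Of 37 cholesterol synthesis and lipogenesis genes, all tested, 26 were called lower, none higher (3 of 37 had a difference above 0) and 13 were lower than the mixture, with a median of -1.43. Fasn, fatty acid synthase, was 2.14, 2.18, -0.65 and -0.45 in neo-liver and 4.16, 3.76 and 4.29 in control liver. Arrays 3 and 4 were far lower than arrays 1 and 2, without overlap with the controls, and Fasn fell by 3.27 ± 0.77 (adjusted p = 0.00337, limma). Thrsp, a nuclear protein that responds to carbohydrate and thyroid hormone, showed the same pattern over arrays, 5.58, 7.26, 3.79 and 2.80 against 9.08, 9.02 and 8.98, and fell by 4.17 ± 1.08 (adjusted p = 0.00592). Srebf1, the regulator of fatty acid synthesis, fell by 2.92 ± 0.84 (adjusted p = 0.0107). Leaving out control liver array 1 left 2 cholesterol synthesis and lipogenesis genes below the mixture, and no scaling also left 2. Fasting state and hour of collection are not given in the sources used here. Of 23 circadian clock genes tested 9 were called lower, and 4 with quantile scaling and 4 with no scaling. Over all genes 29.7%, 21.0% and 4.24% were called lower under these settings. The clock genes were not tested as a list, so the counts are no result about the clock.

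Several growth hormone targets were lower. Of 33 growth hormone and sex-dependent genes tested 17 were called lower and 4 higher, with a median of -1.32. Against the mixture 9 were lower and the median was -0.87. Over all genes 29.7% were called lower, 20.4% higher and 20.7% were lower than the mixture. With quantile scaling 12 of the growth hormone and sex dependent genes were called lower, and with no scaling 9. Ghr, the growth hormone receptor, was 4.95, 4.73, 4.24 and 4.58 in neo-liver, 6.11, 6.12 and 5.92 in control liver and 5.56, 5.36, 5.20 and 5.45 in host kidney. The neo-livers lay below both organs. Ghr fell by 1.43 ± 0.20 (adjusted p = 5.87e-05, limma). Igf1, the circulating growth factor made by hepatocytes, fell by 1.34 ± 0.27 (adjusted p = 0.00116) and Igfals, its carrier subunit, by 2.02 ± 0.28 (adjusted p = 5.74e-05).

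The genes below both organs depend on how levels were scaled. A mixture of the organs has a 75th percentile 0.13 to 0.20 (log2) above the arrays' own, so rescaling it puts genes of like level in both organs slightly below both. In 739 of the 764 the organ means were within 2-fold of each other, and with no scaling between arrays 107 genes were below both. Hnf4aos, the antisense transcript of Hnf4a, was -0.02, 1.76, 0.89 and -0.26 in neo-liver, 3.68, 3.79 and 3.97 in control liver and 2.07, 3.15, 2.93 and 2.11 in host kidney. No neo-liver array reached either organ and the fall from control liver was 3.22 ± 0.55 (adjusted p = 3.50e-04, limma). Acy1, aminoacylase 1, was 1.04, 2.24, 1.19 and 1.70 against 3.27, 3.27 and 3.21 and 3.91, 4.36, 3.97 and 4.17 in host kidney. Array 2, with the most kidney RNA, was the highest of the neo-livers, and Acy1 fell by 1.71 ± 0.29 (adjusted p = 3.17e-04). Khk, ketohexokinase, which starts fructose breakdown in liver and proximal tubule, was 6.93, 7.26, 6.66 and 6.66 against 8.37, 8.18 and 8.39 and 7.52, 7.59, 7.78 and 7.36. It fell by 1.44 ± 0.19 (adjusted p = 4.95e-05). Ppp1r1b, the phosphatase inhibitor DARPP-32, fell by 1.92 ± 0.46 (adjusted p = 0.00362), Cited4, a transcriptional coregulator, by 1.89 ± 0.28 (adjusted p = 1.05e-04) and Ptgds, prostaglandin D2 synthase, by 1.68 ± 0.44 (adjusted p = 0.00617). Cryaa, the lens chaperone α-crystallin A, fell by 2.41 ± 0.64 (adjusted p = 0.00673). Usp2, a ubiquitin protease with a daily rhythm, fell by 2.07 ± 0.41 (adjusted p = 9.34e-04). Ptpn5 was also called, but it was well above background on no neo-liver array and on 1 of 3 control liver arrays, so its difference from control liver is between dim signals. The call was lost without control liver array 3, where it differed by -0.95 (adjusted p = 0.226, limma).

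Sinusoidal endothelium genes were partly lower. Of 29 tested 12 were called lower, 5 higher and 5 were lower than the mixture, with a median of -0.60. Over all genes 29.7% were called lower, 20.4% higher and 20.7% were lower than the mixture. Against the mixture the list's median was -0.22, beside -0.19 over all genes, so the list gives no result beyond the mixture level. Stab2, a scavenger receptor of these cells, was 3.37, 3.17, 3.26 and 2.63 in neo-liver and 4.31, 4.42 and 4.33 in control liver. The groups did not overlap and Stab2 fell by 1.25 ± 0.22 (adjusted p = 3.66e-04, limma). Lyve1, the hyaluronan receptor of sinusoidal and lymphatic endothelium, was instead higher, 0.23, -0.52, 0.17 and -0.67 against -2.47, -2.03 and -2.04, without overlap. It differed by 1.98 ± 0.47 (adjusted p = 0.00340) and was above both organs. Pecam1, CD31, a general endothelial marker, differed by 0.10 ± 0.14 (adjusted p = 0.576). With quantile scaling 7 sinusoidal endothelium genes were called lower, and with no scaling 3.

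Cltrn and Lrp2, which had the largest fitted rises with 1 probe taken per gene, were kidney genes at the mixture level. Neither was well above background in control liver, so their order has no meaning. Lrp2, megalin, an uptake receptor of the proximal tubule, was 5.37, 6.67, 5.26 and 6.44 in neo-liver. It rose at least 1251-fold (adjusted p = 5.60e-09, limma) and was -0.18 ± 0.58 against the mixture (adjusted p = 0.845). Cltrn, collectrin, rose at least 2405-fold (adjusted p = 1.39e-08). Umod, uromodulin of the thick ascending limb, was 5.83, 5.73, 4.56 and 6.22 in neo-liver, with array 3 the lowest. Its level was -1.38 ± 0.51 against the mixture (adjusted p = 0.0597). Of 36 proximal tubule genes tested 29 were called higher, with a median of 6.25 against control liver and -0.29 against the mixture. Of 44 loop, distal tubule and collecting duct genes 39 were called higher, with medians of 5.18 and -0.13. The podocyte genes had medians of 3.05 and 0.31. These lists also chose the markers of the share, so their median against the mixture is no independent check. Of 29 bile duct genes tested 17 were called higher and 1 (Krt18) was above both organs. Over all genes 20.4% were called higher. Host kidney exceeded control liver by a median of 2.55 over this list. Against the mixture 2 were higher and 6 lower, with a median of -0.39, so the list gives no rise beyond the mixture level. Krt18 already had a mean of 6.39 in control liver, against 2.89 in host kidney. Krt7, a duct keratin also of the collecting duct, was -0.20 ± 0.26 against the mixture (adjusted p = 0.594). Krt19, a keratin of bile ducts, differed by 0.04 ± 0.33 from control liver (adjusted p = 0.939).

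**Figure D5:**
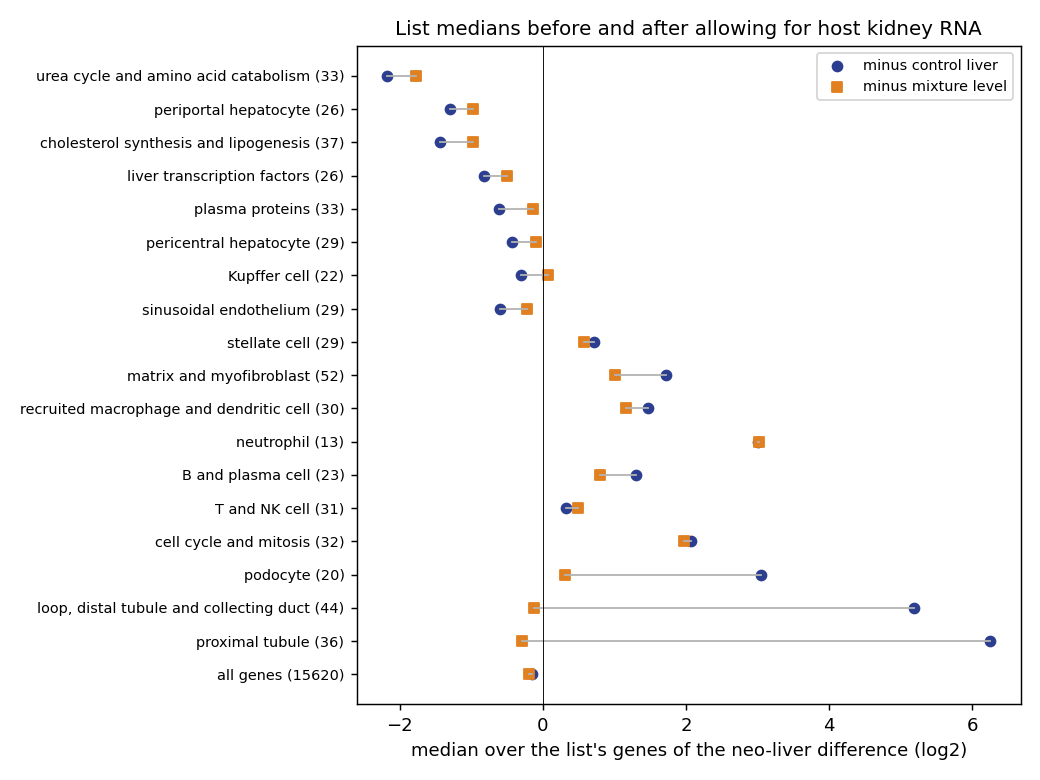
Median difference (log2) of neo-liver from control liver (blue circles) and from the mixture level (orange squares) for 18 gene lists and all genes, with the number of genes tested. The proximal tubule median goes from 6.25 to -0.29, while the amino acid list stays at -1.77 and the neutrophil list at 3.03.

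The 3 largest falls were in Pax2, Nnmt and Etnppl. Nnmt, nicotinamide N-methyltransferase, was 2.55, -0.57, -1.11 and -1.50 in neo-liver and 6.23, 6.15 and 6.20 in control liver, with array 1 well above the others and no overlap. It fell by 6.35 ± 1.03 (adjusted p = 2.15e-04, limma). Pax2, a transcription factor of kidney development, fell by 7.03 ± 0.94 (adjusted p = 4.83e-05) on a probe whose mean was 6.41 in control liver and -3.55 in host kidney. The other Pax2 probes had control liver means of -5.27 and -6.23 and differed by -0.51 and -0.44, so the value for Pax2 is uncertain.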

How the data were processed

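Each array was deposited as its scanner output. Agilent Feature Extraction 10.10.1.1 made the background-subtracted intensity values, per the file headers. The deposited series table holds log2 values. On each array they equal the log2 processed signal minus 1 constant within 0.01 of the log2 75th percentile, with column medians from -3.73 to -3.35, so no centring of genes was found.

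Levels were log2 processed signals minus the array's 75th percentile. Control spots and flagged outlier spots were left out, spots of a probe were averaged, and probes had to be well above background throughout at least 1 group. RefSeq accessions named 26582 of 55681 probes (GRCm38.p6 table), and the brightest kept probe by mean stood for a gene. One limma 3.58.1 model (R 4.3.3) was fitted to all 15 arrays, with Benjamini-Hochberg adjustment over 15620 genes, and was tested on simulated data. The number of arrays limits the precision.

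The comparison, gene lists and named genes were chosen with earlier results of these data known. Named genes were the 8 farthest above and the 8 farthest below both organs, the 4 largest rises and falls, up to 3 leading members per list, and a set of hepatocyte, non-parenchymal and kidney genes; predicted gene models and antigen receptor segments were not named. S100a8, Csf3r, Elane, Trem1, Fasn, Thrsp, Srebf1, Igf1, Igfals, Cx3cr1, Krt7 and some members given by name alone were chosen after their values were seen. Promoter sequences are from RefSeq.

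Neo-liver and host kidney arrays of the same number deviated together (r 0.25 to 0.44, each neo-liver correlating best with its own number), and the labels do not say that a number marks a mouse. Neo-liver and control liver arrays of the same number did not (r -0.13 to 0.01). Alternatives covered scaling, background, filters, probe averaging, kidney share, blocks, thresholds and leaving out each array.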

Additional observations from a re-analysis of the deposited data

Results flagged for a closer look

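Among 150 named genes examined, 6 had 1 neo-liver array far from the other 3, meaning that its gap to the nearest array, divided by the range of the 4, was above Dixon's critical value. Chance gives this in about 5% of groups of 4. For Krt19 the ratio was 0.92, for Cx3cr1 0.914, for Ccl4 0.839 and for Gdf15 0.833, with array 2 the lowest in each. For Alb it was 0.843, with array 1 the highest, and for Gls2 0.84, with array 4 the lowest. Levels are relative to the array's 75th percentile signal, which was 416.0 on neo-liver array 1 and 597.9, 676.4 and 669.2 on arrays 2 to 4. The high Alb value of array 1 is therefore one after scaling, and the outlier was not tested on unscaled signals.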

How the results depend on the processing

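No called value of a named gene changed sign under the alternatives run, except Acadm, which was 0.0019 with quantile scaling (adjusted p = 0.994, limma), and Mdm2, which was 0.14 with no scaling between arrays (adjusted p = 0.709). Of the values of named genes 300 stayed on their side of the threshold with the deposited series values, 257 with quantile scaling, where 28 lost their call, and 241 with no scaling, where 43 did. With no scaling 663 genes were lower than control liver, 107 below both organs, 586 above and 409 below the mixture level. At an adjusted p of 0.01, 228 genes were above both organs, 310 below both, 328 above and 1370 below the mixture. With a fold of at least 2, 1285 were lower than control liver, 269 above both, 52 below both, 524 above and 847 below the mixture. With the mixture rescaled, 1480 were below it. Leaving out 1 array gave 2759 to 3160 higher, 3636 to 4596 lower, 341 to 580 above both, 535 to 821 below both, 460 to 1225 above the mixture and 1751 to 3499 below it. The low ends all came without control liver array 1; the cause was not tested beyond the smaller number of arrays.

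With the array number as a replicate block, 3386 genes were higher, 5041 lower, 552 above both, 958 below both, 1124 above and 3779 below the mixture, so no count moved by over 1.5 times. Among named genes 6 calls were lost and 8 gained under this block. Taking host tissues of one number as one mouse, as a random block (correlation 0.35), lost 4 and gained 6. Signal over background limits the 1375 genes not above background on any control liver array, whose rises depend on the background correction.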
